A study of Mus musculus with 43 samples.

Results

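The Wnt4-null mouse ovary, a female gonad without the secreted signalling protein WNT4, was followed here between embryonic day 15 (E15) and birth (P0). The members were chosen by the titles of the arrays alone and came to 5 of the 43 arrays of the series, 3 at P0 and 2 at E15. The P0 ovaries were labelled as Wnt4-/- single knockouts that also carried Foxl2+/-, that is 1 intact copy of the ovarian transcription factor gene Foxl2. The E15 ovaries were labelled as Wnt4 ko, with no Foxl2 genotype. Control ovaries comprised 3 arrays at P0, which carry no genotype in the labels and are wild type by the methods, and 2 arrays at E15 labelled Wnt4+/-. In 1 alternative, 3 control ovary arrays at E16, also wild type by the methods, took the place of the E15 controls. The 3 P0 testis arrays used for comparison came, per the methods, from Wnt4-null males, whose testis differentiation the methods describe as partly defective. The series holds no P0 testes of another genotype, so the testis levels given here are not those of normal testes. Each array held the RNA of 1 mouse, amplified linearly before labelling. The mix of mouse strains was split by stage: all E15 ovaries, null and control, were on a C57BL/6J background crossed with the original 129 line, whereas the P0 ovaries came from C57BL/6J mice mixed with CD1 and with NIH-Swiss/BC. Stage, strain mix and Foxl2 dose therefore cannot be told apart in the change between E15 and P0 within Wnt4-null ovaries. In the difference between the Wnt4-null and the control change, a strain effect that adds equally to both cancels, and the Foxl2 dose does not. The Wnt4 dose of the controls does not cancel either, as they were Wnt4+/- at E15 and wild type at P0.

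In female mouse fetuses, germ cells enter meiosis in the middle of gestation, pass through meiotic prophase, and form primordial follicles with pregranulosa cells around birth, when oocyte transcription factors, egg coat proteins and maternal-effect genes are switched on. WNT4 and RSPO1 signal through beta-catenin in the somatic cells of the ovary. Loss of Wnt4 is known to leave a masculinised ovary in which steroid-producing cells appear, testis-type vessels and supporting cell genes come up, and most oocytes are lost before birth.

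The promoters below belong to genes that were called between the stages in the Wnt4-null ovary. They are 4 genes of meiotic prophase, which were lower at P0 than at E15, and 1 gene each of steroid synthesis and of Sertoli cells (which nurse germ cells in the testis), which were higher. Each is the 200 bases before the transcription start, from RefSeq (GRCm38.p6), on the plus strand, and capitals mark every match, on either strand, to a pair of motifs. AGGTCA is a half-site bound by nuclear receptors, and CACGTG is an E-box, a palindrome. Stra8 lies at chr6:34920748-34920947, Sycp3 at chr10:88459387-88459586, Hormad1 at chr3:95559477-95559676, Stag3 at chr5:138280309-138280508, Cyp11a1 at chr9:58014752-58014951 and Inha at chr1:75507409-75507608.
Stra8: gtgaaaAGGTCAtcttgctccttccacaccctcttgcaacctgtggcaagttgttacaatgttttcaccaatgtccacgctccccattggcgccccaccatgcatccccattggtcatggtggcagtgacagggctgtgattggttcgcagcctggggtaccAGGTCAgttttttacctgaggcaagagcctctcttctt
Sycp3: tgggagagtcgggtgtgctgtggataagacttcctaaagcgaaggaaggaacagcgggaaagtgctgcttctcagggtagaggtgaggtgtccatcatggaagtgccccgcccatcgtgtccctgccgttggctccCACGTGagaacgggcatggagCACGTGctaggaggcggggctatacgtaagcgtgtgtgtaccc
Hormad1: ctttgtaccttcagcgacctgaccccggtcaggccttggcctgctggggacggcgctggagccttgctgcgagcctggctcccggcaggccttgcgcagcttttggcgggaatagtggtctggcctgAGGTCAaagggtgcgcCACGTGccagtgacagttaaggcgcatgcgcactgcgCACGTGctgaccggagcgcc
Stag3: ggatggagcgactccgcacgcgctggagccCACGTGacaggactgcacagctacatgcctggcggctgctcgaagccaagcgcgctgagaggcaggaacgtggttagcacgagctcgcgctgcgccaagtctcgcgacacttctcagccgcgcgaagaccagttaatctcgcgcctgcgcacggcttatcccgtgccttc
Cyp11a1: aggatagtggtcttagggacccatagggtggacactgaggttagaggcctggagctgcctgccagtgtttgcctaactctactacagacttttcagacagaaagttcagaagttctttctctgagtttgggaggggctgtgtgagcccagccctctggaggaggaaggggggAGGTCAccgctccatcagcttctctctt
Inha: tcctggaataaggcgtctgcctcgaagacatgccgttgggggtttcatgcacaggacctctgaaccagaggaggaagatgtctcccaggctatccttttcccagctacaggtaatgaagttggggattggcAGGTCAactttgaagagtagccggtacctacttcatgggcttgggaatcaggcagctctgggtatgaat
Counted back from the start, AGGTCA lay at -194 and -38 in Stra8, at -73 in Hormad1, at -28 in Cyp11a1 (1 of its 2 listed starts) and at -69 in Inha. CACGTG lay at -64 and -43 in Sycp3, at -57 and -20 in Hormad1 and at -170 in Stag3. Both starts listed for Hormad1 had CACGTG. These 6 genes were picked for holding a match, so that their matches say nothing of how common the motifs are. Of all 32851 promoters of this length, 11.4% held AGGTCA and 5.26% held CACGTG. Among the 25 promoters listed for 21 meiotic genes, 7 (28%) held CACGTG and 3 (12%) held AGGTCA. Among 17 promoters of oocyte genes, 2 (11.8%) held each motif. Among the steroid synthesis genes, 3 of 15 promoters (20%) held AGGTCA and 1 of 15 (6.67%) held CACGTG. Among the Sertoli cell genes, 3 of 17 (17.6%) held AGGTCA and 2 of 17 (11.8%) held CACGTG. The matches are a description of these windows. Cyp17a1, Star, Cyp21a1 and Zp2 had no entry.

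Signals are given as the intensity of a gene's brightest probe set relative to the common mean of the arrays, and changes as differences of log2(signal + 1% of that mean), which understates the change of dim genes. Array medians of the 10 ovary arrays lay between 0.1971 and 0.2495 and replicate pairs correlated at 0.9575 to 0.9769. Among the Wnt4-null arrays 2 stood apart. At E15, array 2 had higher signals than array 1 for 14 of 14 germ cell genes (median log2 difference 1.22, against 0.12 between the control E15 arrays), for 21 of 25 meiotic genes (0.78, against 0.12) and for 10 of 12 genes of striated muscle (0.66, against 0.03). Myh3, an embryonic muscle myosin, reached 3.1 on that array and 0.0941 on the other. At P0, array 1 was lowest for 13 of 21 oocyte genes and 13 of 14 germ cell genes, and highest for 9 of 10 steroid synthesis genes. Results that rest on these arrays are given with and without them. The control E15 arrays also differed, by a median log2 of -0.78 (array 2 over array 1) for steroid synthesis genes and 2.20 for red cell genes. For these lists the Wnt4-null E15 arrays differed less, by -0.20 and 0.52.

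Wnt4 itself had signals of 0.284, 0.306 and 0.2 in Wnt4-null P0 ovaries, against 0.414 and 0.358 in Wnt4-null E15 ovaries. Every Wnt4-null array lay under every control array, at 0.726, 0.581 and 0.745 at P0 and 1.01 and 1.31 at E15, as the labels imply. The change between the stages was not called in Wnt4-null ovaries (log2 difference -0.56 ± 0.31 SE, adjusted p = 0.305), although the gene's other probe set was called lower (-1.05). Whether either probe set covers the part of the gene that was removed was not examined. Foxl2, the marker of ovarian supporting cells, had signals of 5.13, 5.35 and 5.9 at P0 and 5.6 and 5.69 at E15. The groups overlapped (log2 difference -0.05 ± 0.57 SE, adjusted p = 0.976), and all 5 arrays lay far above the testes, at 0.214, 0.145 and 0.000528.

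Of 18184 genes tested with limma, 843 (4.64%) were called higher and 970 (5.33%) lower at P0 than at E15 in Wnt4-null ovaries at an adjusted p under 0.05. In control ovaries 1606 (8.83%) were higher and 998 (5.49%) lower. The median change over all genes was -0.059 in Wnt4-null and -0.0046 in control ovaries. The comparisons shared no arrays: 315 genes rose in both (of 843 and 1606), 379 fell in both (of 970 and 998), and 19 (0.104%) were called in opposite directions, 10 of them higher in Wnt4-null and lower in control ovaries. The Wnt4-null change exceeded the control change in 103 genes (0.566%) and fell short of it in 244 (1.34%) by the test of the difference itself, whose median was -0.076. After quantile normalization this split was 111 and 159. The counts rested on single arrays: without Wnt4-null E15 array 2, 188 genes were higher and 212 lower at P0 than at E15, and 27 and 77 differed from the control change. Without control P0 array 1 the difference was called in 585 genes, and without Wnt4-null P0 array 1 in 152.

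Oocyte genes rose toward birth in Wnt4-null ovaries for part of the list, and less than in controls for 6 of its members. Of 21 measured genes of oocyte transcription factors, egg coat and maternal factors, 7 were called higher and 1 lower at P0 than at E15 in Wnt4-null ovaries (median 1.20), against 17 higher and 0 lower in controls (median 4.19). The shares of all genes were 4.64% higher and 5.33% lower in Wnt4-null ovaries, and 8.83% and 5.49% in controls. The Wnt4-null change was below the control change in all 21, with 6 called, and the median of that difference was -2.62. Of all genes, 1.34% were called below the control change. Fewer oocytes and less RNA per oocyte cannot be told apart in whole ovaries. Summed over the list, the signal was 11.3, 26.1 and 20.6 in Wnt4-null P0 ovaries and 4.41 and 15.9 in Wnt4-null E15 ovaries, whereas controls had 57.4 to 138 at P0 and 4.85 to 5.01 at E15. The Wnt4-null sums overlapped between the stages, and the control sums did not.

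Of 4 transcription factors that act in oocytes of primordial follicles, Nobox and Lhx8 were called higher at P0, and Sohlh1 and Figla were not. Nobox had 0.412, 1.45 and 1.04 in Wnt4-null P0 ovaries, against 0.0886 and 0.126 in Wnt4-null E15 ovaries. These groups did not overlap, and the change was 2.90 ± 0.74 (SE, adjusted p = 0.01), whereas control ovaries had 4.02, 6.51 and 5.09 at P0 and 0.153 and 0.1 at E15 (5.26 ± 0.74). Lhx8 had 1.2, 2.51 and 2.08 at P0 and 0.137 and 0.148 at E15, a rise of 3.60 ± 0.96 (adjusted p = 0.0135). The difference from the control change was not called for either gene (adjusted p = 0.316 for Nobox and 0.8 for Lhx8). Sohlh1 had 0.876, 2.54 and 2.31 at P0 and 0.431 and 0.714 at E15, a change of 1.62 ± 0.53 that missed the threshold (adjusted p = 0.0522), passed it without Wnt4-null P0 array 1 (0.0185), and was below that of controls by 2.95 ± 0.76 (adjusted p = 0.0375). Figla, which turns on the egg coat genes, overlapped between the stages, with 0.839, 1.67 and 1.16 at P0 and 0.414 and 1.28 at E15 (adjusted p = 0.69), and its change was -0.12 without E15 array 1 and 1.49 without array 2.

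Maternal-effect and egg coat genes differed in whether a rise was called. Nlrp5, a component of the subcortical complex of the egg, had 0.645, 1.4 and 1.42 in Wnt4-null P0 ovaries, against 0.0267 and 0.0119 in Wnt4-null E15 ovaries. Its rise of 5.28 ± 0.69 (adjusted p = 4.41e-06) stood beside one of 7.29 ± 0.69 in controls, and the difference was not called (adjusted p = 0.377). Zp2, an egg coat protein, rose by 4.57 ± 0.64 (adjusted p = 1.32e-05), with 0.0416, 0.682 and 0.37 at P0 and 2.82e-05 and 1.15e-05 at E15. These E15 signals lay far under the 1% of the mean that was added, so the size of the rise depends on that amount. The Zp2 change was below the control change, without a call. The difference was -2.76 after quantile normalization (adjusted p = 0.125) and -3.26 when either Wnt4-null E15 array was left out. Outside the list, Nlrp4f, a relative of Nlrp5, rose by 4.02 ± 0.82, and Tcl1, a cofactor of AKT kinase, by 3.30 ± 0.73. In contrast, Gdf9, a growth factor that oocytes secrete, had 0.22, 0.739 and 0.182 in Wnt4-null P0 ovaries, against 0.245 and 0.249 in Wnt4-null E15 ovaries. The groups overlapped (0.32 ± 0.37, adjusted p = 0.685), while control ovaries had 2.6, 6.7 and 5.04 at P0 and 0.249 and 0.253 at E15. The Wnt4-null change was below the control change by 3.77 ± 0.53 (adjusted p = 9.42e-05). Zp1, another egg coat gene, had 0.0204, 0.0469 and 0.0169 at P0 and 0.0144 and 0.0184 at E15, and its change was 4.34 ± 0.87 below that of controls (adjusted p = 0.00667). Bmp15, a growth factor related to Gdf9, had 0.0278 to 0.043 at P0 and 0.0307 to 0.0471 at E15 and was not called in Wnt4-null ovaries (adjusted p = 0.949).

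Kit, the receptor by which oocytes receive Kit ligand, had 0.38, 0.945 and 0.751 in Wnt4-null P0 ovaries, against 0.129 and 0.176 in Wnt4-null E15 ovaries, a rise of 2.03 ± 0.47 (adjusted p = 0.00484). In control ovaries it had 2.64, 3.62 and 2.5 at P0 and 0.0917 and 0.121 at E15, so that the Wnt4-null rise was 2.62 ± 0.67 smaller (adjusted p = 0.0377). This difference was -0.08 (adjusted p = 0.962) when the control change was taken from control E16 instead of E15 ovaries. Trp63, a p53 relative that monitors DNA damage in oocytes, had 0.435, 0.952 and 0.651 at P0 and 0.149 and 0.244 at E15, a rise of 1.71 ± 0.49, which was 4.18 ± 0.69 smaller than in controls (adjusted p = 0.0011). The 3 other Trp63 probe sets gave -0.15 to 1.29 and were not called. Padi6, a protein of the oocyte's cytoplasmic lattices, rose by 2.16 ± 0.62, although 1 E15 array (0.076) lay within the P0 range of 0.0716 to 0.514. Dppa3, a maternal factor also present in early germ cells, had 5.58, 11.1 and 9.7 at P0, against 0.977 and 10.1 at E15, where the arrays differed about as much as the stages, and its change was -0.26 without E15 array 1 and 3.10 without array 2. H1f8, the linker histone of oocytes, rose by 2.19 ± 0.56, and Sycp2l, an oocyte relative of a synaptonemal complex protein, by 3.23 ± 0.68. Taf4b, a subunit of the general factor TFIID that germ cells require, was the list's called fall, with 0.169, 0.152 and 0.128 at P0 and 0.826 and 1.0 at E15 (-2.53 ± 0.55, adjusted p = 0.00229).

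Against P0 testes, 10 of the 21 oocyte genes were higher and 0 lower in Wnt4-null P0 ovaries, where 8.0% of all genes were higher and 5.87% lower. Nobox exceeded its testis level by 4.34 ± 0.66 and Figla by 4.45 ± 0.72, whereas Gdf9 did not differ by the test (0.61 ± 0.33, adjusted p = 0.234). Leaving out single arrays changed many of these calls. Of the 12 rises and falls named for oocytes, 7 were lost without Wnt4-null E15 array 2 (adjusted p of the lost calls 0.0659 to 0.438), 6 without Wnt4-null E15 array 1 (0.0528 to 0.228), 4 without Wnt4-null P0 array 2 (0.0557 to 0.174) and 2 without Wnt4-null P0 array 3 (0.0563 to 0.0598). Nlrp5, Zp2 and Nlrp4f stayed called in each case. Of the 7 called differences from controls, Gdf9, Zp1 and Trp63 stayed called whichever array was left out, and Sohlh1, Padi6, Dppa3 and Kit did not. These 4 were lost without control P0 array 2 or 3, either control E15 array or Wnt4-null P0 array 1 (0.0569 to 0.206), and 2 or 3 of them without either Wnt4-null E15 array or Wnt4-null P0 array 3 (0.0554 to 0.407). With control E16 ovaries, which share the strain mix of the P0 ovaries but not the stage or the strain mix of the Wnt4-null E15 ovaries, Sohlh1 (-1.48, adjusted p = 0.252), Dppa3 (-3.23, 0.0679) and Kit lost their calls, and Gdf9, Zp1, Padi6 and Trp63 did not. Without either of the E15 arrays, 3 genes of the list were called higher at P0, and without P0 array 2, 4 were.

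**Figure D1:**
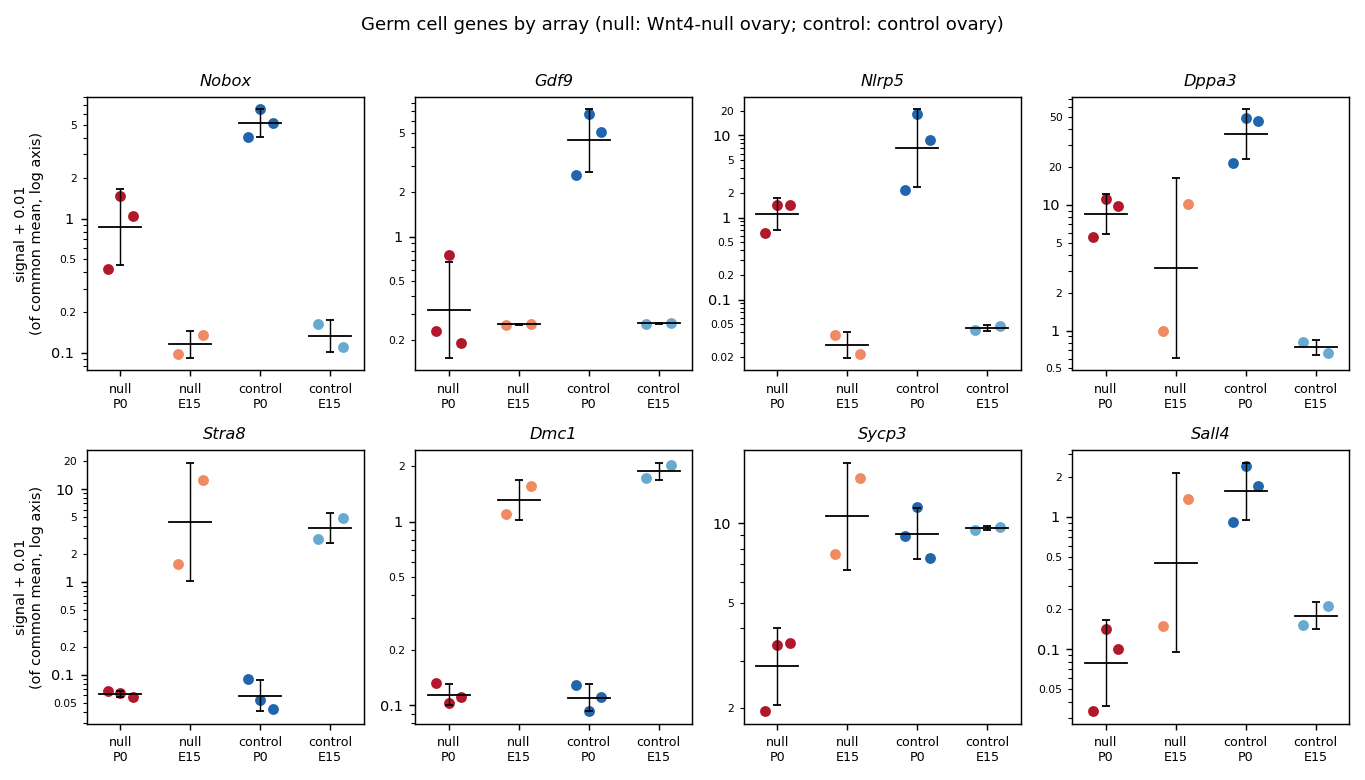
Signal plus 1% of the common mean (log axis) of 8 germ cell genes on each array, with Wnt4-null P0, Wnt4-null E15, control P0 and control E15 ovaries side by side; points are arrays, lines the mean and bars the SD of the log values. Gdf9 stayed between 0.182 and 0.739 in Wnt4-null P0 ovaries, and Stra8 was at 0.0473 to 0.0566 there.

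Genes of meiotic prophase fell in Wnt4-null ovaries. Of 25 measured genes, 19 were called lower and 1 higher at P0 than at E15 (median -2.60), against 11 lower and 1 higher in controls (median -1.41). For comparison, 5.33% of all genes were lower and 4.64% higher in Wnt4-null ovaries, and 5.49% and 8.83% in controls. The difference between the changes had a median of -1.07, with 21 of 25 genes below 0 and 0 called. It was called below 0 in 1.34% of all genes and above 0 in 0.566%. Summed over the list, the signal was 13.1, 20 and 18 in Wnt4-null P0 ovaries and 51 and 95.3 in Wnt4-null E15 ovaries, with no overlap, whereas controls had 49.2, 56 and 47.4 at P0 and 77.5 and 86.9 at E15. The gene that rose in Wnt4-null and in control ovaries was Sycp2l, given above.

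Stra8, the retinoic acid-responsive gene needed to enter meiosis, had 0.0566, 0.0537 and 0.0473 in Wnt4-null P0 ovaries, against 1.56 and 12.5 in Wnt4-null E15 ovaries. It fell by 6.15 ± 1.01 on the log2 scale (adjusted p = 0.000121) and by 5.99 ± 1.01 in controls, where it had 0.0805, 0.0438 and 0.033 at P0 and 2.91 and 4.89 at E15. Genes of recombination fell likewise. Dmc1, the meiotic recombinase, had 0.122, 0.0925 and 0.101 at P0 and 1.09 and 1.56 at E15, a fall of 3.52 ± 0.46 (adjusted p = 4.41e-06). Spo11, which cuts DNA to start recombination, fell by 3.46 ± 0.52. Outside the list, Prdm9, the methyltransferase that marks recombination sites, fell by 3.97 ± 0.55. Meioc, which keeps germ cells in prophase, had 0.239, 0.405 and 0.452 at P0 and 4.31 and 8.26 at E15, a fall of 4.04 ± 0.60. Tesmin, a gene of meiotic germ cells, fell by 4.27 ± 0.57. None of these genes overlapped between the stages in Wnt4-null ovaries, which for Prdm9, Meioc and Tesmin was a condition of being named. For none was the difference from the control change called (adjusted p 0.684 for Spo11 to 0.983 for Stra8).

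Among the proteins of the chromosome axis, Sycp3 had a control change near 0. Sycp3, an axis protein of the synaptonemal complex, had 1.93, 3.45 and 3.51 in Wnt4-null P0 ovaries, against 7.64 and 14.8 in Wnt4-null E15 ovaries. It fell by 1.89 ± 0.43 (adjusted p = 0.00406), while control ovaries had 8.95, 11.5 and 7.39 at P0 and 9.45 and 9.7 at E15 (-0.07 ± 0.43). The difference of -1.83 ± 0.61 was not called (adjusted p = 0.138). Hormad1, another axis protein, had 0.096, 0.209 and 0.22 at P0 and 1.49 and 2.64 at E15, and its fall of 3.51 ± 0.51 stood beside a control change of -1.21 ± 0.51 (adjusted p of the difference = 0.107). The synaptonemal genes Sycp1 and Sycp2 fell by 2.22 ± 0.55 and by 3.33 ± 0.56, and the cohesin genes Smc1b and Stag3 fell by 2.86 ± 0.72 and by 3.34 ± 0.44. Rec8, a further meiotic cohesin, overlapped between the stages, with 0.189, 0.298 and 0.437 at P0 and 0.299 and 0.739 at E15 (adjusted p = 0.679). Against P0 testes, 2 of 25 meiotic genes were higher and 0 lower, near the shares of all genes (8.0% higher and 5.87% lower). Without Wnt4-null E15 array 2, the array with the higher meiotic signals, 10 of the 25 were called lower and the median was -2.33, and Sycp1, Sycp3 and Smc1b lost their calls (adjusted p 0.0996 to 0.18). Sycp1 also lost its call without E15 array 1 (0.0542).

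**Figure D2:**
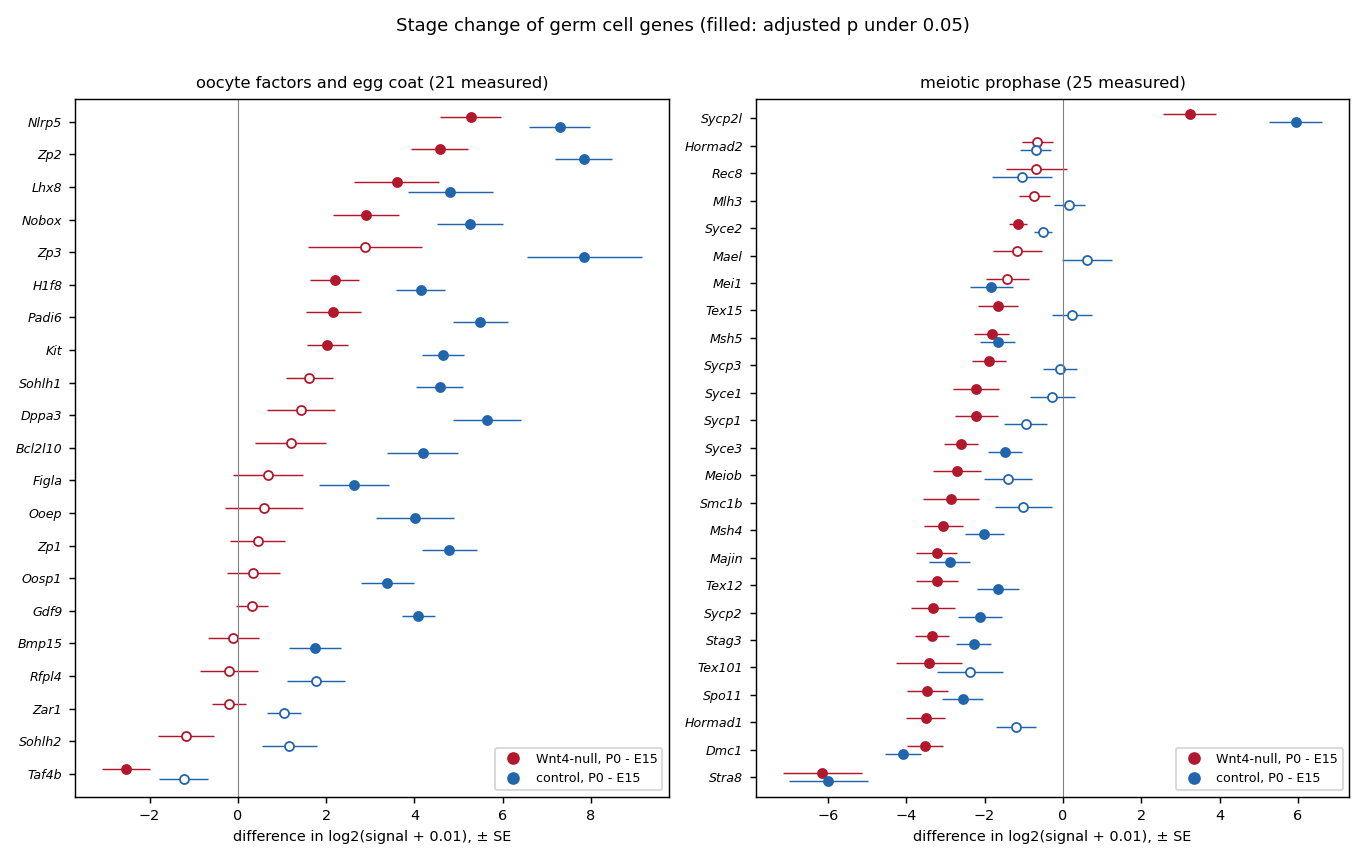
Difference in log2(signal + 1% of the common mean) between P0 and E15 with its SE for each measured oocyte gene (left, 21 genes) and meiotic gene (right, 25 genes), in Wnt4-null ovaries (red) and control ovaries (blue); filled points had an adjusted p under 0.05. For all 21 oocyte genes the Wnt4-null point lies left of the control point.

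Genes of germ cells of both sexes and of pluripotency fell in part in Wnt4-null ovaries and rose in part in controls, with Sall4 and Pou5f1 among both. Of 14 measured genes, 5 were called lower and 1 higher at P0 than at E15 in Wnt4-null ovaries (median -1.78), against 0 lower and 8 higher in controls (median 2.26), and the difference was below 0 in all 14 and called in 4. The shares of all genes were 5.33% lower and 4.64% higher in Wnt4-null ovaries, and 5.49% and 8.83% in controls. The difference was called below 0 in 1.34% of all genes. Sall4, a transcription factor of pluripotent and germ cells, had 0.0238, 0.131 and 0.09 in Wnt4-null P0 ovaries, against 0.139 and 1.35 in Wnt4-null E15 ovaries. Its change of -2.53 ± 0.67 (adjusted p = 0.0141) opposed that of 3.13 ± 0.67 in controls, which had 0.908, 2.43 and 1.71 at P0 and 0.141 and 0.202 at E15, and the difference was -5.66 ± 0.95 (adjusted p = 0.00127). Pou5f1, the pluripotency factor OCT4, had 0.034, 0.0839 and 0.0499 at P0 and 0.0908 and 0.651 at E15 (-2.04 ± 0.54, adjusted p = 0.0136). It rose by 2.94 ± 0.54 in controls, a difference of -4.98 ± 0.77 (adjusted p = 0.000392). In both genes the lower E15 array lay just above the P0 range.

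Dppa4 and Dppa5a, markers of pluripotent cells, differed from controls in the same direction, by -3.94 ± 0.92 and -4.30 ± 0.99, with Wnt4-null changes that were not called (adjusted p = 0.0957 and 0.0718), although both were called lower without Wnt4-null E15 array 1 (-2.93 and -3.50). Dazl, an RNA-binding protein of germ cells, had 1.03, 1.74 and 1.38 in Wnt4-null P0 ovaries, against 3.74 and 8.45 in Wnt4-null E15 ovaries, and fell by 2.05 ± 0.44 (adjusted p = 0.0021). In control ovaries Dazl had 4.06 to 5.38 at P0 and 4.07 to 4.93 at E15, and the difference missed the threshold (adjusted p = 0.0881). Ddx4, an RNA helicase of germ cells, had 0.227, 0.527 and 0.445 at P0 and 0.983 and 1.89 at E15 (-1.83 ± 0.66, adjusted p = 0.0796). Tdrd1, of the pathway that silences transposons, was the called rise, with 0.313, 0.908 and 0.565 at P0 and 0.102 and 0.113 at E15 (2.24 ± 0.66, adjusted p = 0.0277). Without Wnt4-null E15 array 2, which had the higher signal for each of the 14 genes, 0 were called in either direction and the median was -0.54, and Sall4, Pou5f1, Dazl and Tdrd1 lost their calls (adjusted p 0.16 to 0.638). Without Wnt4-null P0 array 1, Sall4 and Pou5f1 lost them too (0.067 to 0.105). Tdrd1 also lost its call without E15 array 1 (0.138), P0 array 2 (0.123) or P0 array 3 (0.0671). The differences from controls stayed called for Sall4 and Pou5f1 whichever array was left out, and were lost for Dppa4 and Dppa5a without Wnt4-null E15 array 2 (0.267 to 0.277), control E15 array 1 (0.103 to 0.119) or control P0 array 2 (0.0579 to 0.0727), for Dppa5a without Wnt4-null P0 array 1 (0.0563) and for Dppa4 without Wnt4-null P0 array 3 (0.0587). The other probe set of Sall4 (-1.60) was not called. The muscle genes that were also higher on that E15 array are given above, and their part in the result was not tested.

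Steroid synthesis genes rose in Wnt4-null ovaries. The list held 18 genes, of which 10 were measured here, and Cyp19a1, the aromatase gene, was not among these. Of the 10 measured genes, 7 were called higher and 0 lower at P0 than at E15 (median 1.76), against 0 in either direction in controls (median 0.01), and the difference was above 0 in 9 and called in 2. Among all genes, 4.64% were higher and 5.33% lower in Wnt4-null ovaries, and 8.83% and 5.49% in controls. The difference was called above 0 in 0.566% of all genes. Star, which brings cholesterol into mitochondria, had 6.7, 3.7 and 3.64 in Wnt4-null P0 ovaries, against 1.86 and 1.12 in Wnt4-null E15 ovaries, a rise of 1.63 ± 0.36 (adjusted p = 0.00315). Cyp11a1, which cuts the cholesterol side chain, had 3.86, 1.62 and 2.11 at P0 and 0.573 and 0.35 at E15 (2.37 ± 0.72, adjusted p = 0.0326). Every control array lay below these ranges for both genes. The 2 other Cyp11a1 probe sets gave -0.53 and -0.05 and were not called.

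Cyp17a1, which opens the branch toward androgens, had 4.25, 1.57 and 1.56 in Wnt4-null P0 ovaries, against 0.425 and 0.157 in Wnt4-null E15 ovaries. It rose by 3.03 ± 0.78 (adjusted p = 0.0105), while control ovaries had 0.165, 0.00294 and 0.0407 at P0 and 0.278 and 0.0657 at E15. The difference of 4.63 ± 1.10 was called (adjusted p = 0.0227). Hsd17b1, which reduces estrone, had 4.87, 4.87 and 4.86 at P0 and 1.17 and 0.97 at E15 (2.18 ± 0.52, adjusted p = 0.00587), with P0 arrays that were nearly equal. Hsd17b3, the enzyme that makes testosterone in the testis, had 1.51, 0.908 and 0.437 at P0 and 0.215 and 0.23 at E15 (1.88 ± 0.53, adjusted p = 0.0201). It was the list member called lower than in testes, which had 9.14, 3.68 and 7.76 (-2.90 ± 0.47). Fdx1, the electron carrier of mitochondrial steroid enzymes, had 19.7, 14.3 and 13.4 at P0 and 8.89 and 8.26 at E15, a rise of 0.86 ± 0.17 that exceeded the control change by 1.19 ± 0.24 (adjusted p = 0.00713). Scarb1, the receptor that takes up lipoprotein cholesterol, had 2.89, 1.58 and 1.26 at P0 and 0.477 and 0.435 at E15 (1.96 ± 0.30, adjusted p = 5.02e-05). Its other 2 probe sets rose as well.

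Members that were not called included Nr5a1, the regulator of steroid genes, with 1.03, 0.858 and 0.933 at P0 and 0.839 and 0.826 at E15 (adjusted p = 0.816), Hsd3b1 (0.93 ± 0.39, adjusted p = 0.14) and Hsd17b7 (-0.33 ± 0.30, adjusted p = 0.576). Dhcr7, the last enzyme of cholesterol synthesis, rose by 0.92 ± 0.26, as the only called gene of 14 of that pathway, and exceeded the control change by 1.61 ± 0.37 (adjusted p = 0.0181). Set against P0 testes, 0 of the 10 steroid genes were higher and 1 lower, with a median of -0.12. Of all genes, 8.0% were higher and 5.87% lower. The log2 difference of Wnt4-null P0 ovaries from P0 testes was 0.01 ± 0.32 for Star, -0.29 ± 0.64 for Cyp11a1 and -0.01 ± 0.69 for Cyp17a1, and a missed threshold does not show that the levels were the same. Wnt4-null P0 array 1 had the highest signal for 9 of the 10 genes. Without it 4 of the 10 were called higher, and Cyp11a1, Cyp17a1, Hsd17b3 and Dhcr7 lost their calls (adjusted p 0.0651 to 0.145). Without Wnt4-null E15 array 2, 2 of the 10 were called, Fdx1 and Scarb1, and Star, Cyp11a1, Cyp17a1, Hsd17b1, Hsd17b3 and Dhcr7 lost theirs (0.105 to 0.276), with a list median of 1.58. Cyp11a1, Hsd17b3 and Dhcr7 were also lost without Wnt4-null E15 array 1 (0.0765 to 0.168), Hsd17b3 without P0 array 2 (0.0566) and Cyp11a1 without P0 array 3 (0.0612). The differences from controls of Cyp17a1, Fdx1 and Dhcr7 were lost without Wnt4-null E15 array 2 (0.0551 to 0.183), and those of Cyp17a1 and Dhcr7 without Wnt4-null P0 array 1 (0.081 to 0.0858) or control E15 array 1 (0.0666 to 0.177). Dhcr7 was also lost without control E15 array 2 (0.0661) or Wnt4-null E15 array 1 (0.0714), and Cyp17a1 without control P0 array 2 (0.096). With control E16 in place of E15 ovaries, the difference of Fdx1 was 0.53 (adjusted p = 0.193) and that of Cyp17a1 3.37 (0.0559), both no longer called, and Dhcr7 stayed called (1.29, 0.027).

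Of 8 measured genes of the adrenal cortex, the enzyme genes Cyp21a1 and Cyp11b1 were called higher at P0 and 0 lower. Cyp21a1, the 21-hydroxylase of corticosteroid synthesis, had 4.26, 2.38 and 2.07 in Wnt4-null P0 ovaries, against 0.776 and 0.181 in Wnt4-null E15 ovaries. It rose by 2.84 ± 0.60 (adjusted p = 0.0018), and control ovaries had 0.0739, 0.0215 and 0.0119 at P0 and 0.153 and 0.0331 at E15. The difference from the control change was 3.95 ± 0.84 (adjusted p = 0.0105). Unlike the androgen enzymes, Cyp21a1 was called higher than in P0 testes, which had 0.329, 0.782 and 0.474 (2.45 ± 0.53, adjusted p = 0.0021). Its other probe set gave -1.43 and was not called. Cyp11b1, which completes glucocorticoid synthesis, had 1.76, 1.04 and 0.588 at P0 and 0.261 and 0.143 at E15 (2.35 ± 0.64, adjusted p = 0.0162), again above the testis (0.203, 0.226 and 0.267). Mc2r, the receptor for corticotropin, had 0.237, 0.15 and 0.106 at P0 and 0.0477 and 0.0418 at E15 and was not called between stages (adjusted p = 0.121), but was higher than in testes by 1.97 ± 0.58 (adjusted p = 0.0209). Nr0b1, a repressor of steroid genes in adrenal and gonad, was not called (0.56 ± 0.36). Of the 8 genes, 3 were higher than in testes, where 8.0% of all genes were higher. Without Wnt4-null E15 array 2, Cyp21a1 and Cyp11b1 lost their calls (adjusted p 0.195 to 0.233) and the difference of Cyp21a1 from controls was lost too (0.167), as it was without control E15 array 1 (0.127). Cyp11b1 also lost its call without Wnt4-null P0 array 1 (0.0888). The genes of the adrenal medulla, a tissue next to the cortex, summed to 2.36 to 2.99 in Wnt4-null P0 ovaries and 2.19 to 2.32 in Wnt4-null E15 ovaries, with 0 of 9 called. Those of the kidney summed to 0.296 to 0.518 at P0 and 0.57 to 0.618 at E15, with 0 of 9 called. Among all genes 4.64% were called higher and 5.33% lower, so that 0 of 9 says little of either list.

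**Figure D3:**
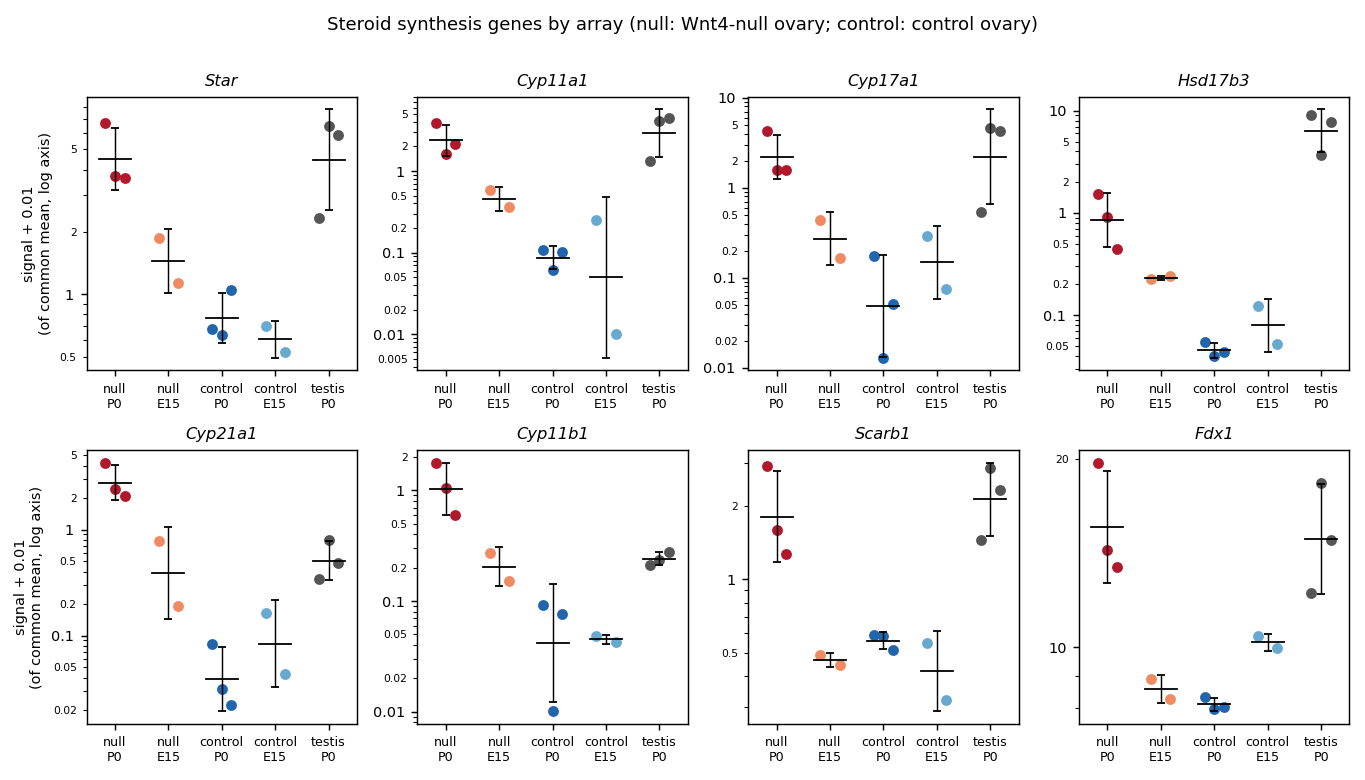
Signal plus 1% of the common mean (log axis) of 8 genes of steroid and corticosteroid synthesis on each array of Wnt4-null P0, Wnt4-null E15, control P0 and control E15 ovaries and of P0 testes; points are arrays, lines the mean and bars the SD of the log values. Cyp21a1 lies at 2.07 to 4.26 in Wnt4-null P0 ovaries, above all other groups, whereas Hsd17b3 is highest in testes.

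Sertoli cell and testis pathway genes rose in part. Of 28 measured genes, 13 were called higher and 0 lower at P0 than at E15 in Wnt4-null ovaries (median 0.91), against 4 higher and 0 lower in controls (median 0.30), and 4 changed more than in controls. Over all genes, 4.64% were higher and 5.33% lower in Wnt4-null ovaries, 8.83% and 5.49% in controls, and 0.566% exceeded the control change. Against P0 testes, 14 of the 28 were lower and 2 higher in Wnt4-null P0 ovaries (median -0.84). There, 5.87% of all genes were lower and 8.0% higher. Sox9, the transcription factor that directs Sertoli cell fate, had 0.664, 0.505 and 0.764 in Wnt4-null P0 ovaries, against 0.222 and 0.132 in Wnt4-null E15 ovaries, and rose by 1.83 ± 0.40 (adjusted p = 0.00273). In control ovaries the stages overlapped, at 0.789, 0.216 and 0.283 at P0 and 0.67 and 0.435 at E15, so that 1 control P0 array was above every Wnt4-null array. The testes had 2.87, 2.38 and 2.87, above the Wnt4-null P0 ovaries (-2.07 ± 0.36, adjusted p = 0.000154). The 2 other Sox9 probe sets gave 0.53 and 1.0 and were not called. Sox8, a relative that backs up Sox9, rose in Wnt4-null (1.32 ± 0.41) and in control ovaries (2.29 ± 0.41).

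The hedgehog pathway, by which Sertoli cells call up androgen-producing Leydig cells, was followed through its ligand, receptor and targets. Dhh, the ligand, had 3.41, 2.69 and 2.76 in Wnt4-null P0 ovaries, against 0.833 and 0.549 in Wnt4-null E15 ovaries, and rose by 2.10 ± 0.41 (adjusted p = 0.000781). Control ovaries had 0.0705, 0.0965 and 0.0982 at P0 and 0.271 and 0.0617 at E15, below all Wnt4-null arrays, and the changes differed by 2.64 ± 0.58 (adjusted p = 0.0121). The other Dhh probe set gave 0.18 and was not called. Ptch1, the receptor and a target of the pathway, had 10, 10.7 and 8.39 at P0 and 5.9 and 4.61 at E15 (0.89 ± 0.19, adjusted p = 0.00226), and rose by 0.99 ± 0.19 in controls. Hhip, outside the list, which binds hedgehog proteins and is induced by them, had 0.478, 0.476 and 0.0821 at P0 and 0.0658 and 0.0159 at E15, a rise of 2.66 ± 0.68 that exceeded the control change by 3.90 ± 0.97 (adjusted p = 0.0316). Gli1, the transcription factor of the pathway, had 0.58, 0.393 and 0.521 at P0 and 0.364 and 0.108 at E15 and was not called (adjusted p = 0.271).

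Cst9, a cystatin of Sertoli cells, had 1.22, 1.34 and 1.36 in Wnt4-null P0 ovaries, against 0.183 and 0.123 in Wnt4-null E15 ovaries. It rose by 3.04 ± 0.50 (adjusted p = 0.000125), changed by 3.62 ± 0.71 more than in controls (adjusted p = 0.00544), and stayed below the testis level of 7.32, 6.57 and 6.45 (-2.36 ± 0.45). Defb19, a defensin of Sertoli cells, had 5.7, 4.9 and 4.45 at P0 and 0.908 and 0.833 at E15 (2.51 ± 0.42), with a difference from controls of 2.74 ± 0.60 (adjusted p = 0.0119). Clu, the secreted chaperone clusterin, rose by 1.5 ± 0.29 and Aard, a gene of Sertoli and granulosa cells, by 1.51 ± 0.25. The inhibin subunits Inha and Inhbb rose by 1.47 ± 0.37 and 1.24 ± 0.24. Inhbb had 7.2, 5.67 and 5.46 at P0 and 2.45 and 2.67 at E15, and its P0 level did not differ from the testis by the test (-0.04 ± 0.21). Inhba, the third subunit, was not called by its brightest probe set (0.66 ± 0.54), while its other probe set was called lower (-1.58). Tesc, a calcium-binding protein of the early testis, rose in Wnt4-null (3.08 ± 0.54) and control ovaries (3.38 ± 0.54), as did Col9a3, a collagen of fetal Sertoli cells (1.98 ± 0.47 and 2.82 ± 0.47). Cyp26b1, which degrades retinoic acid, had 0.858, 1.21 and 0.82 at P0 and 0.348 and 0.301 at E15 (1.52 ± 0.39, adjusted p = 0.0105), below the testis at 4.52, 3.27 and 4.71.

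Other defining genes of the testis were not called with all arrays. Amh, the hormone of fetal Sertoli cells, had 0.506, 0.414 and 0.526 in Wnt4-null P0 ovaries and 0.524 and 0.446 in Wnt4-null E15 ovaries (adjusted p = 0.985), with testes at 0.689, 0.764 and 0.621 (-0.51 ± 0.19, adjusted p = 0.0706). Dmrt1, a transcription factor of Sertoli and germ cells, had 0.221, 0.133 and 0.362 at P0 and 0.082 and 0.945 at E15 (adjusted p = 0.77), against 5.53, 4.26 and 4.26 in testes. It was called lower at P0 without Wnt4-null E15 array 1 (-2.05, adjusted p = 0.0143), whereas its change was 1.33 without array 2 (adjusted p = 0.202). Fgf9, a growth factor that sustains Sox9, had 0.257, 0.243 and 0.242 at P0 and 0.263 and 0.241 at E15 (adjusted p = 0.984). Ptgds, a prostaglandin synthase of Sertoli cells, and Fshr, the follitropin receptor, were not called between stages (adjusted p = 0.566 and 0.339) and lay below the testis (-3.80 ± 0.46 and -2.92 ± 0.49). Of the 14 rises named in the testis pathway, Hhip included, 8 were lost without Wnt4-null E15 array 2 (Sox9, Sox8, Dhh, Ptch1, Hhip, Clu, Inha and Cyp26b1, adjusted p 0.0589 to 0.274), and 6 of the 28 genes were then called. Sox8, Inha and Col9a3 were lost without Wnt4-null E15 array 1 (0.0658 to 0.155), Sox8 and Hhip without P0 array 1 (0.0648 to 0.103), and Sox8, Hhip and Cyp26b1 without P0 array 2 (0.0542 to 0.124). Cst9, Defb19, Aard, Inhbb and Tesc stayed called in each case. The 5 differences from controls (Sox9, Dhh, Hhip, Cst9 and Defb19) were all lost without Wnt4-null E15 array 2 (0.0551 to 0.241) and without control E15 array 1 (0.114 to 0.286). Sox9 and Hhip were also lost without control P0 array 2 (0.0613 to 0.0938), control P0 array 3 (0.0675 to 0.0808) or Wnt4-null P0 array 1 (0.0604 to 0.106), Hhip without P0 array 2 (0.0743) and Sox9 without P0 array 3 (0.0534). With control E16 in place of E15 ovaries, Sox9 (1.77, adjusted p = 0.052), Hhip (2.83, 0.0715) and Defb19 (1.53, 0.117) lost their calls, and Dhh and Cst9 did not.

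**Figure D4:**
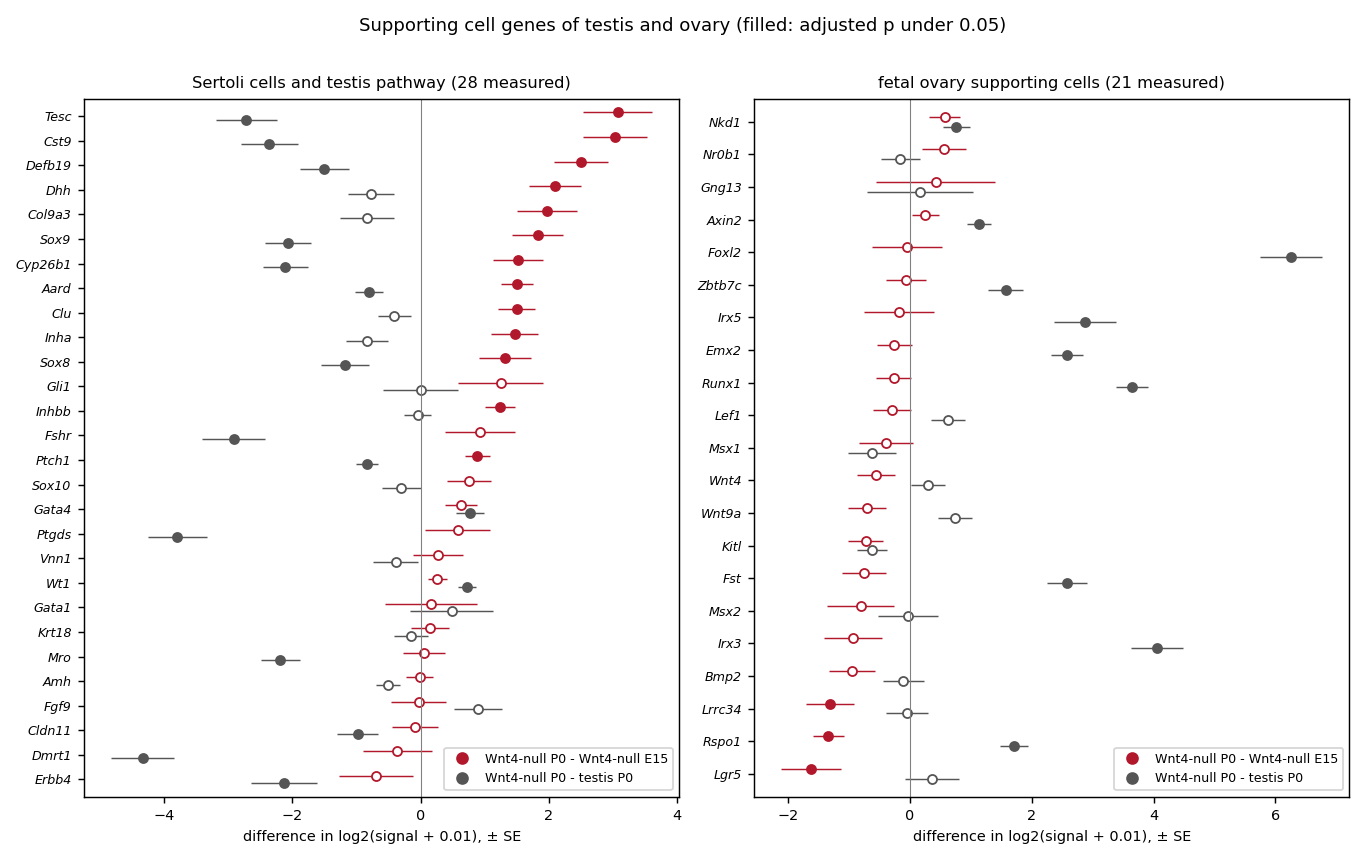
Differences in log2(signal + 1% of the common mean) with their SE for each measured Sertoli cell gene (left, 28 genes) and fetal ovary supporting cell gene (right, 21 genes): Wnt4-null P0 minus Wnt4-null E15 ovaries (red) and Wnt4-null P0 ovaries minus P0 testes (grey); filled points had an adjusted p under 0.05. Of the Sertoli cell genes 13 are filled on the higher side in red and 14 on the lower side in grey.

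Of the genes of the ovarian supporting lineage, few were called. Of 21 measured genes, 0 were called higher and 3 lower at P0 than at E15 in Wnt4-null ovaries (median -0.39), against 1 higher and 4 lower in controls (median -0.82). Over all genes, 4.64% were higher and 5.33% lower in Wnt4-null ovaries, and 8.83% and 5.49% in controls. Against P0 testes, 10 were higher and 0 lower. Rspo1, the partner of WNT4 in beta-catenin signalling, had 2.83, 3.3 and 3.7 in Wnt4-null P0 ovaries, against 7.89 and 8.64 in Wnt4-null E15 ovaries, and fell by 1.34 ± 0.26 (adjusted p = 0.000668). In control ovaries it had 5.89, 5.63 and 5.05 at P0 and 7.07 and 5.86 at E15, and the difference was not called (-1.12 ± 0.36, adjusted p = 0.121). Lgr5, an R-spondin receptor, had 0.026, 0.073 and 0.153 at P0 and 0.311 and 0.172 at E15 (-1.62 ± 0.49, adjusted p = 0.0332), and Lrrc34 was the third fall (-1.31 ± 0.39, adjusted p = 0.0281). Fst, the activin binder follistatin, Kitl, the Kit ligand, and Irx3, a transcription factor of the ovary, had log2 changes of -0.76, -0.73 and -0.94 and were not called, although 3 other probe sets of Kitl were called lower. Axin2, a feedback target of beta-catenin, had 1.07, 1.54 and 1.72 at P0 and 1.29 and 1.1 at E15 and was not called (adjusted p = 0.565), and both stages lay below controls at 3.35 to 4.95. Lgr5 lost its call without Wnt4-null E15 array 1 (adjusted p = 0.311) or P0 array 1 (0.23), and Lrrc34 without P0 array 3 (0.0831). Both lost it without E15 array 2 (0.0818 to 0.58) or P0 array 2 (0.0651 to 0.128). Rspo1 stayed called in each case.

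Genes of granulosa cells showed 4 called rises and 0 falls of 15 measured in Wnt4-null ovaries (median 0.31), against 3 and 0 in controls. By comparison, 4.64% of all genes rose and 5.33% fell in Wnt4-null ovaries, and 8.83% and 5.49% in controls. The 4 rises were Aard, Hsd17b1, Inha and Inhbb, given above. The 3 control rises, in Nr5a2, Esr2 and Slc18a2, exceeded the Wnt4-null change, and the Wnt4-null E15 arrays already lay above the control E15 arrays. Over the 15 genes the difference had a median of 0.08 and was above 0 in 9. It was called below 0 in 1.34% of all genes. Nr5a2, a nuclear receptor of granulosa cells, had 0.182, 0.208 and 0.207 in Wnt4-null P0 ovaries and 0.286 and 0.299 in Wnt4-null E15 ovaries, while control ovaries had 0.586, 0.449 and 0.421 at P0 and 0.0317 and 0.113 at E15. The changes differed by -3.32 ± 0.68 (adjusted p = 0.00812). Esr2, the estrogen receptor beta, had 0.231, 0.148 and 0.195 at P0 and 0.267 and 0.261 at E15, against 0.000555 and 0.0355 in control E15 ovaries (-3.47 ± 0.80, adjusted p = 0.0186). Slc18a2, a vesicular monoamine transporter, had 1.17, 1.4 and 1.42 at P0 and 2.03 and 1.53 at E15, with control ovaries at 0.739 to 1.11 at P0 and 0.213 and 0.312 at E15 (-2.22 ± 0.51, adjusted p = 0.0176). These 3 differences were lost without control E15 array 1 (adjusted p 0.104 to 0.209), and those of Esr2 and Slc18a2 also without control P0 array 2 (0.0542 to 0.058) or Wnt4-null E15 array 1 (0.055 to 0.0795), that of Esr2 without Wnt4-null E15 array 2 (0.0878) or control P0 array 3 (0.05), and that of Slc18a2 without Wnt4-null P0 array 1 (0.0539). None was called with control E16 in place of E15 ovaries, where the difference was -1.76 for Nr5a2 (adjusted p = 0.115), -1.23 for Esr2 (0.387) and -1.34 for Slc18a2 (0.104).

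Beyond these lists, genes with no germ cell or steroid role were among the largest rises and differences. Cnmd, a cartilage glycoprotein, had 11, 10 and 8.89 in Wnt4-null P0 ovaries, against 1.35 and 0.82 in Wnt4-null E15 ovaries. It rose by 3.22 ± 0.53 (adjusted p = 0.000107) and was far above the control ovaries, at 0.15 to 0.284 at P0, and above the testes (5.63 ± 0.47). Mbl2, a mannose-binding lectin, rose by 5.15 ± 0.87 in Wnt4-null and 6.06 ± 0.87 in control ovaries. Pdgfd, a growth factor, and Tnfaip6, a hyaluronan-binding protein, rose by 3.40 ± 0.78 and 3.38 ± 0.67. Itgbl1, an integrin-like secreted protein, had 0.43, 0.392 and 0.32 at P0 and 0.0345 and 0.0284 at E15, a rise of 3.23 ± 0.51 that differed from controls by 4.32 ± 0.72 (adjusted p = 0.00117). Slc38a5, a glutamine transporter, had 0.858, 1.05 and 1.16 at P0 and 0.129 and 0.0573 at E15, and differed from the control change by 4.25 ± 0.73 (adjusted p = 0.00155). The control levels of both genes were at or under 0.12 on every array.

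Maob, a monoamine oxidase, and Kcnk15, a potassium channel, rose in Wnt4-null ovaries and were called lower in controls, where both were dim. Every control array lay under 0.2561, the median level of all probe sets. Kcnk15 had 0.442, 0.371 and 0.441 in Wnt4-null P0 ovaries, against 0.119 and 0.0774 in Wnt4-null E15 ovaries. Control ovaries had Kcnk15 signals of 0.0493, 4.67e-05 and 0.0139 at P0 and 0.128 and 0.064 at E15. Maob had 0.559, 0.593 and 0.914 in Wnt4-null P0 ovaries, against 0.0878 and 0.0879 in Wnt4-null E15 ovaries (2.80 ± 0.45), and 0.0793, 0.0187 and 0.0141 in control P0 ovaries, against 0.0976 and 0.0996 in control E15 ovaries (-1.46 ± 0.45). The difference was 4.26 ± 0.63 for Maob (adjusted p = 0.000285) and 4.07 ± 0.73 for Kcnk15 (adjusted p = 0.00263). Cbln1, a secreted synapse organiser, went the other way. It had 0.651, 0.432 and 0.638 in Wnt4-null P0 ovaries, against 1.33 and 2.36 in Wnt4-null E15 ovaries (-1.64 ± 0.33, adjusted p = 0.00126), and rose by 1.99 ± 0.33 in controls, a difference of -3.63 ± 0.47 (adjusted p = 2.78e-05). Its 2 other probe sets fell as well. In P0 testes Cbln1 had 8.89, 8.89 and 9.33, above the Wnt4-null P0 ovaries (-3.98 ± 0.30, adjusted p = 6e-12). Maob and Kcnk15 did not differ from testes by the test (adjusted p = 0.236 and 0.777). Of these rises and falls, Pdgfd lost its call without Wnt4-null E15 array 1 (0.0617) and Kcnk15, Tnfaip6 and Cbln1 theirs without Wnt4-null E15 array 2 (0.117 to 0.182).

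Other genes rose in controls without a called change in Wnt4-null ovaries. Th, tyrosine hydroxylase, had 0.0304, 0.103 and 0.0472 in Wnt4-null P0 ovaries and 0.0485 and 0.0153 in Wnt4-null E15 ovaries, against a control rise of 5.74 ± 0.54, and the difference was -5.00 ± 0.77 (adjusted p = 0.000392). Ttn and Myom2, proteins of the sarcomere, differed by -4.96 ± 0.77 and -6.87 ± 1.28. Ttn had 0.057, 0.15 and 0.0759 at P0 and 0.0698 and 0.308 at E15, and 0.626, 0.745 and 0.839 in control P0 ovaries, but its 5 other probe sets gave -0.70 to 0.30 between the Wnt4-null stages. Myom2 lost its call without Wnt4-null E15 array 2 (adjusted p = 0.0561). With control E16 in place of E15 ovaries the differences of Th and Ttn were each -3.15 and stayed called. Col8a1, a collagen of vessel walls, had 1.26, 1.78 and 1.92 at P0 and 1.31 and 0.92 at E15 in Wnt4-null ovaries, while control ovaries had 1.36, 1.91 and 1.9 at P0 and 0.0483 and 0.0743 at E15. The P0 groups overlapped, the E15 groups did not, and the changes differed by -4.05 ± 1.03 (adjusted p = 0.0357), which was lost when any array other than control P0 array 1, Wnt4-null P0 array 2 or Wnt4-null P0 array 3 was left out (0.0736 to 0.14).

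**Figure D5:**
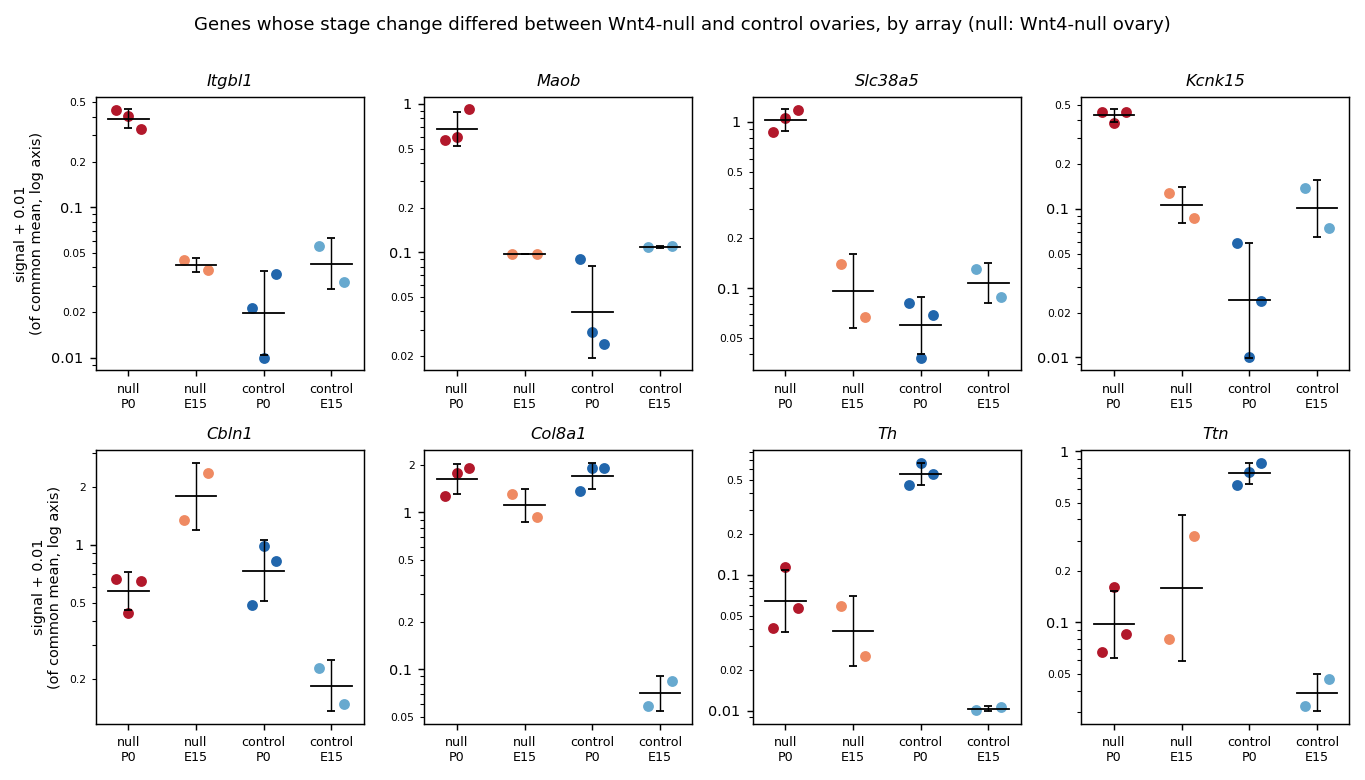
Signal plus 1% of the common mean (log axis) of 8 genes whose change between E15 and P0 differed between Wnt4-null and control ovaries, on each array of Wnt4-null P0, Wnt4-null E15, control P0 and control E15 ovaries; points are arrays, lines the mean and bars the SD of the log values. Maob lies at 0.559 to 0.914 in Wnt4-null P0 ovaries, and Th lies at or under 0.103 there.

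Some genes of the extracellular matrix rose, and few stromal and vascular genes did. Of 29 measured genes of the extracellular matrix, 11 were higher and 0 lower at P0 than at E15 in Wnt4-null ovaries (median 0.53), against 12 and 0 in controls (median 0.61). Eln, the elastic fibre protein elastin, had 8.64, 8.26 and 9.77 at P0 and 3.08 and 3.12 at E15 (1.51 ± 0.22, adjusted p = 2.54e-05), and Dcn, a collagen-binding proteoglycan, rose by 1.08 ± 0.31. Tcf21, a transcription factor of gonadal interstitium, had 4.19, 4.58 and 5.1 at P0 and 2.52 and 1.63 at E15 (1.18 ± 0.24), and Dlk1, an imprinted gene of interstitial cells, 7.58, 7.01 and 7.32 at P0 and 3.79 and 2.77 at E15 (1.17 ± 0.24). Of 17 measured genes of stroma and interstitium 3 rose, Dcn, Tcf21 and Ptch1, and 0 fell (median 0.33). Of 16 endothelial genes 2 rose, the junction protein Cdh5 (3.79, 3.58 and 4.21 at P0 and 2.64 and 1.72 at E15) and the co-receptor Eng. By comparison, 4.64% of all genes rose and 5.33% fell in Wnt4-null ovaries. The endothelial sum was 14.3 to 16.4 in Wnt4-null P0 ovaries and 10.7 to 12.9 in Wnt4-null E15 ovaries, above control ovaries at 9.85 to 10.4. Msln, a marker of the ovarian surface, rose in both kinds of ovary (2.43 ± 0.59 and 2.7 ± 0.59). Of 16 macrophage genes 0 were called, with sums of 7.54 to 8.22 at P0 and 6.94 to 8.74 at E15. Without Wnt4-null E15 array 2, 2 of the 29 matrix genes were called, and Dcn, Tcf21, Dlk1, Cdh5, Eng and Msln lost their calls, with adjusted p of up to 0.412. Dcn also lost its call without Wnt4-null P0 array 1 (0.0912). The other probe sets of Dcn (0.68), Tcf21 (0.34) and Eng (0.93) were not called.

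Among the falls, the embryonic globins led. Hbb-y had 0.00999, 0.0104 and 0.0111 in Wnt4-null P0 ovaries, against 1.32 and 9.08 in Wnt4-null E15 ovaries (-7.41 ± 0.95, adjusted p = 3.86e-06), and Hba-x had 0.0174 to 0.0418 at P0 and 1.45 and 6.7 at E15 (-6.41 ± 0.80). In controls they changed by -9.01 ± 0.95 and -8.13 ± 0.80. The red cell sum was 1.18 to 1.34 at P0 and 3.8 to 9.18 at E15. The red cell membrane gene Slc4a1 fell by 2.66 ± 0.85, with other probe sets at -2.42 to 0.57 that were not called. Of 19 mitosis genes, 4 fell and 0 rose, where 5.33% of all genes fell and 4.64% rose. Bub1, a spindle checkpoint kinase, had 0.459, 0.494 and 0.428 at P0 and 1.44 and 2.64 at E15 (-2.06 ± 0.30, adjusted p = 2.45e-05), and Top2a, a topoisomerase, fell by 0.95 ± 0.24, although the other probe sets of Bub1 (0.41) and Top2a (-0.25 to 0.54) were not called. Myh11, smooth muscle myosin, fell by 0.94 ± 0.27, with its other probe set at 0.44. Peg3, an imprinted zinc finger gene, fell by 0.46 ± 0.12 and by 0.45 ± 0.12 in controls. Ugt8a, a galactolipid enzyme, fell by 4.70 ± 0.60. Top2a, Myh11 and Slc4a1 lost their calls without Wnt4-null E15 array 2 (adjusted p of up to 0.412), Myh11, Peg3 and Slc4a1 without E15 array 1 (0.0613 to 0.248) or P0 array 2 (0.0501 to 0.0577), Myh11 and Slc4a1 without P0 array 3 (0.0686 to 0.0998), and Slc4a1 without P0 array 1 (0.155).

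The E15 ovary arrays, null and control, were the ones with the 129 strain mix. In 41 genes (0.225%) the 4 E15 ovary arrays, null and control, lay outside all 39 other arrays, 28 above and 13 below. One was Il1bos, a non-coding transcript next to an interleukin gene, with 0.0541, 0.0512 and 0.0563 in Wnt4-null P0 ovaries and 1.61 and 0.989 in Wnt4-null E15 ovaries, and 0.0506 to 0.0766 in control P0 ovaries and 0.914 and 1.65 in control E15 ovaries. It fell by 4.32 ± 0.66 in Wnt4-null ovaries and by 4.09 ± 0.66 in controls (difference -0.22 ± 0.93). In these genes stage and strain mix cannot be told apart. When the control change was taken from the 3 control E16 ovaries, which shared the strain mix of the P0 ovaries by the methods, the Wnt4-null change differed in 1000 genes, 558 higher and 442 lower. The stage and strain mix of the control E16 ovaries both differ from those of the Wnt4-null E15 ovaries. Of the 32 differences named, 11 lost their calls with these ovaries, and none changed sign.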

How the data were processed

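RNA of 1 gonad sample per mouse was amplified linearly (Pico Ovation, biotin labelled) and hybridised to Affymetrix mouse arrays. The deposited intensities, per the labels and from the values, were summarised by the authors with plier and scaled to a common mean on each array (array means 15973355 to 15974672). GCOS 1.3 is named in the submitters' processing notes with no role. The genome build behind the probe sets is not given in the sources used here. There are no detection calls in the values used, so dim signals carry no statement on background, and the number of arrays limits the precision.

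Intensities were set to log2(intensity + 159740), where 159740 is 1% of the common mean. A single model with the means of 15 groups was fitted to the 43 arrays in limma 3.58.1 (R 4.3.3), with moderated variances that follow the mean (28 residual degrees of freedom), and p-values were adjusted by Benjamini-Hochberg over 45007 probe sets, after 64 control probe sets of 45071 were left out. A gene was read from its brightest probe set (18184 genes), and called at an adjusted p under 0.05. Of the probe sets, 34927 had 1 gene in the platform annotation, 930 several and 9150 none, and 34723 matched the RefSeq table. The contrasts were Wnt4-null P0 minus E15, control P0 minus E15, the difference of both, and Wnt4-null P0 minus P0 testis. The last 2 share arrays with the first. The fit was tested on simulated data. The Focus program of the study was not used here. The labels do not say whether mice of a group shared a litter, so p-values measure the spread between these arrays.

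The members and the gene lists were chosen with earlier results of these data known. Named were Wnt4 and Foxl2, the 12 largest called rises and 12 largest falls without overlap of the arrays and above the median level of all probe sets, the 8 largest called differences in each direction with that level limit, the measured members of the core lists, up to 4 genes of each other list by adjusted p, and up to 8 genes called in opposite directions. The text gives a subset, and Col8a1 was added after its values were seen. Alternatives were pseudocounts of 0.1% and 5%, quantile normalization, a limit on dim probe sets, each probe set on its own, the compared groups alone, no variance trend, array weights, a replicate block, control E16 ovaries for the control change, and each array left out.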

Additional observations from a re-analysis of the deposited data

Results flagged for a closer look

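The stage change differed between Wnt4-null and control ovaries in 347 genes by the test of the difference itself (limma, adjusted p under 0.05), and the genes below are those the text names among them. Values are the Wnt4-null change minus the control change on the log2 scale.

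Among oocyte genes, the difference was -2.95 for Sohlh1, -3.77 for Gdf9, -4.34 for Zp1, -3.33 for Padi6, -4.22 for Dppa3, -2.62 for Kit and -4.18 for Trp63. Among germ cell and pluripotency genes it was -5.66 for Sall4, -4.98 for Pou5f1, -3.94 for Dppa4 and -4.30 for Dppa5a. All 11 were negative, that is lower in the Wnt4-null than in the control change.

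The steroid and cholesterol genes had positive differences, with 4.63 for Cyp17a1, 1.19 for Fdx1 and 1.61 for Dhcr7, and the adrenal enzyme gene Cyp21a1 had 3.95. Of the testis genes, Sox9 had 2.38, Dhh 2.64, Hhip 3.90, Cst9 3.62 and Defb19 2.74. The 3 called granulosa genes were negative, with -3.32 for Nr5a2, -3.47 for Esr2 and -2.22 for Slc18a2. Over the 15 measured granulosa genes the median difference was 0.08, with 9 above 0.

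Of the genes in no such group, Itgbl1 had 4.32, Slc38a5 4.25, Maob 4.26 and Kcnk15 4.07, and Myom2 had -6.87, Ttn -4.96, Th -5.00, Col8a1 -4.05 and Cbln1 -3.63. Maob, Kcnk15, Cbln1, Sall4 and Pou5f1 were called in opposite directions in Wnt4-null and control ovaries.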

How the results depend on the processing

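With each probe set as its own feature, 3769 probe sets were called between the Wnt4-null stages, 5396 between the control stages, 601 in the difference of the changes and 5450 against testes, where more features were counted. The difference was called in 607 genes with array weights and in 1000 with control E16 ovaries in place of E15, and the cause was not tested. Leaving out 1 array gave 400 to 1313 genes between the Wnt4-null stages (400 without Wnt4-null E15 array 2), 1200 to 2507 between the control stages (1200 without control E15 array 2 and 1527 without array 1) and 1469 to 2004 against testes (1469 without Wnt4-null P0 array 3, 1525 without testis array 1 and 1593 without Wnt4-null P0 array 2). For the difference the range was 104 to 585, with 104 without Wnt4-null E15 array 2, 147 without control P0 array 2, 152 without Wnt4-null P0 array 1, 158 and 195 without control E15 arrays 1 and 2, 215 without control P0 array 3 and 585 without control P0 array 1. Of the core lists, 59 members were called between the Wnt4-null stages, and 22 to 55 when 1 array was left out (22 without Wnt4-null E15 array 2). None of the calls of named genes changed direction. Among named genes not called between the Wnt4-null stages, 15 values in 9 genes changed sign. Leaving out 1 array gave -0.12 to 1.49 for Figla, -0.29 to 0.69 for Gdf9, -0.34 to 0.14 for Bmp15, -0.26 to 3.10 for Dppa3, -0.13 to 0.10 for Amh, -2.05 to 1.33 for Dmrt1, -0.09 to 0.04 for Fgf9, -1.71 to 0.28 for Ttn and -4.86 to 0.04 for Myh3. The sign also changed for Bmp15 with a replicate block (0.03), and for Bmp15 (0.06), Amh (0.08) and Fgf9 (0.10) after quantile normalization. Without Wnt4-null E15 array 1, Dmrt1, Dppa4, Dppa5a and Myh3 were called lower (-2.05, -2.93, -3.50 and -4.86). Of 112 calls of named genes, 43 held under all alternatives, and 61 were lost without Wnt4-null E15 array 2. Fitting the compared groups alone lost 14, a pseudocount of 0.1% lost 14, quantile normalization lost 8 and array weights lost 0. Of the 32 named differences from the control change, control E16 ovaries in place of E15 lost 11 (Sohlh1, Dppa3, Kit, Cyp17a1, Fdx1, Sox9, Hhip, Defb19, Nr5a2, Esr2 and Slc18a2).

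The replicate numbers establish no pairing: only 2 numbers are shared, and deviations of same-numbered arrays correlated at 0.128 and 0.056 in Wnt4-null and at -0.013 and -0.017 in control ovaries. With the replicate number as a block, 1306 genes were called between the Wnt4-null stages, 2087 between the control stages and 388 in the difference, and 55 members of the core lists.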
